A study of Mus musculus with 16 samples.

Results

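RNA levels in cell protrusions were compared between NIH/3T3 cells in which Apc had been knocked down and control cells. NIH/3T3 is an established line of mouse embryonic fibroblasts. The comparison used the 4 protrusion libraries labelled siAPC and the 4 labelled siControl, which are 8 of the 16 libraries of the series, and covered all 13015 RNAs in the deposited table. The other 8 libraries are the cell bodies of the same conditions. They serve here to show where protrusions differed from them, and they also enter the fit that estimates the spread between libraries. All groups were the same line and were starved of serum. They sat for 2 h on a filter whose pores measured 3 µm, had lysophosphatidic acid (LPA) below the filter for 1 h, and were then fixed (0.3% paraformaldehyde, 10 min). Protrusions (Ps) were scraped from the underside of the filter and cell bodies (CB) from its upper side. The siControl cells had received a negative control siRNA and the siAPC cells an siRNA against Apc. The methods list more than 1 Apc siRNA and do not state which was sequenced, so in these libraries an off-target effect of a single siRNA and the loss of Apc cannot be told apart. The study also knocked down Apc through another region of the RNA in other assays, which are not analysed here. No rescue of Apc was part of the series.

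Levels are given as log2 CPM, in which the reads of an RNA plus 0.5 are scaled to a common library size that carries the authors' factor between libraries. A log2 fold change is the mean of the 4 siAPC libraries minus the mean of the 4 siControl libraries. An RNA is said to have risen or fallen when limma gave a Benjamini-Hochberg adjusted p below 0.05 over all 13015 RNAs. Labels give the replicates as separate samples, and the study's results text calls them independent. P-values measure the spread between these libraries. In fractions of many cells, RNA in fewer protrusions and less RNA per protrusion cannot be told apart.

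The Ps libraries held 13466225 to 19524235 reads in listed RNAs, and a floor of 3 reads lay between -2.44 and -1.80 log2 CPM. Floors cover counting error only. In every group a few of 10292 RNAs set replicates 1 and 2 apart from replicates 3 and 4. In siAPC Ps, 12 RNAs were higher in replicates 1 and 2 by a gap above 1 on the log2 scale, and 8 of them by a gap above 2, all with names of pseudogenes or predicted genes such as Rpl31-ps9 and Gm6061. In siControl Ps, 19 RNAs were higher in replicates 3 and 4 by a gap above 1, with Cyr61 and Egr1 beyond a gap of 2. Read counts of RNAs with enough reads were also closest between replicates 3 and 4. In siAPC Ps the chi-square per degree of freedom was 2.97 for this pair and 6.57 to 16.5 for the others. In siControl Ps it was 2.51 for this pair and 13.2 to 26.4 for the others. The p-values nevertheless treat the 4 libraries of a group as equally independent. Results were therefore also computed within replicates 1 and 2 and within replicates 3 and 4, a split chosen after the data were seen. These values stand beside some of the results that moved, and named RNAs without a call in either pair are counted at the end. The scaling ratio of the libraries averaged 0.979 in siAPC Ps and 0.875 in siControl Ps (exact two-sided permutation p = 0.0286, the smallest possible with 4 against 4). Mitochondrial genes took 2.55% ± 0.316 (SD, n = 4) of reads in siAPC Ps and 3.23% ± 0.647 (SD, n = 4) in siControl Ps (exact permutation p = 0.0857). For every replicate number the share was lower in the siAPC Ps library than in the siControl Ps library, a pairing that the test did not use. Of 11 fibroblast markers 10 were listed, with a summed level of 22562 to 24835 CPM in siControl Ps and 27621 to 30112 CPM in siAPC Ps, and 5 of them rose. Macrophage markers were listed for 4 of 8 genes and summed to 21.8 to 25.8 CPM in siControl Ps and 35.2 to 43.5 CPM in siAPC Ps, with Ptprc not listed. Muscle markers were listed for 2 of 5 and summed to 15.6 to 21.3 CPM in siControl Ps and 28.5 to 34.96 CPM in siAPC Ps. Lyz2 of the former list and Acta1 of the latter rose. Epithelial markers were listed for 2 of 7 (Cdh1 and Krt14) and summed to 257.6 to 306.0 CPM in siControl Ps and 298.3 to 334.5 CPM in siAPC Ps, and neither was called. Endothelial markers were listed for 2 of 7 and summed to at most 1.29 CPM in either group, and none of 5 adipocyte markers was listed. The part of these differences in the results was not tested.

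Apc encodes a large scaffold protein that holds beta-catenin in the complex that marks it for destruction. When this complex is impaired, beta-catenin accumulates and, with TCF/LEF factors, turns on target genes of the Wnt pathway. The same protein binds microtubule plus ends, and in migrating fibroblasts it is known for anchoring certain mRNAs at the tips of protrusions. RNA in protrusions can therefore reflect what a cell transcribes as well as what it carries there.

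Apc itself gave 3.52, 3.73, 3.29 and 3.56 log2 CPM in siControl Ps libraries 1 to 4, and 1.63, 1.90, 1.87 and 1.33 in siAPC Ps libraries 1 to 4. All siAPC libraries lay below all siControl libraries (exact two-sided permutation p = 0.0286, the smallest possible). The log2 fold change was -1.84 (SE 0.25, adjusted p = 3.11e-05), which left 27.9% of the control level. In CB the log2 fold change of Apc was -1.67. The labels therefore matched the level of the targeted RNA in Ps. Ctnnb1, the gene of beta-catenin, stood at 8.65 to 8.89 log2 CPM in siControl Ps and 8.63 to 8.79 in siAPC Ps, and its log2 fold change of -0.11 (SE 0.06, adjusted p = 0.204) did not pass the test.

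Across all RNAs, 1393 (10.7%) were higher and 1464 (11.2%) were lower in siAPC Ps than in siControl Ps. The increases were larger than the decreases. More than 2-fold differences were found for 432 of the higher and 59 of the lower RNAs and more than 4-fold differences for 136 and 1, the latter the predicted gene Gm14966 with 0 to 10 reads in siAPC Ps and 8 to 12 in siControl Ps and a call lost in 8 of 17 alternatives. The median log2 fold change was 0.64 among higher RNAs and -0.36 among lower RNAs. Lower RNAs were also more abundant, with a median level of 5.69 log2 CPM in Ps against 3.65 for higher RNAs and 3.77 for the 10158 RNAs that passed in neither direction. Scaling each library to its total listed reads raised the median of all log2 fold changes by 0.16, so that 84.3% of called RNAs were higher instead of 48.8%, whereas a correction for GC content and length gave 32.1%. The median of all RNAs, -0.02 under the deposited scaling and 0.14 under total listed reads, is the level against which the list medians below are to be read. Counts of list members in Ps are likewise to be read beside 10.7% higher and 11.2% lower over all RNAs. The study's expression minimum was 0.5 log2 CPM in at least 1 library, although 1298 RNAs of the table lie at or below that value in all 16. An RNA that exceeds it in siAPC libraries alone had little room to be called lower, and 1267 of the 1393 higher RNAs were not of this kind. Conversely, 18 of the 1464 lower RNAs exceeded it in siControl libraries alone. Total listed reads adds the same 0.16 to every list median, so a sign that turns under it reflects that shift and leaves the list's place relative to all RNAs as it was.

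**Figure D1:**
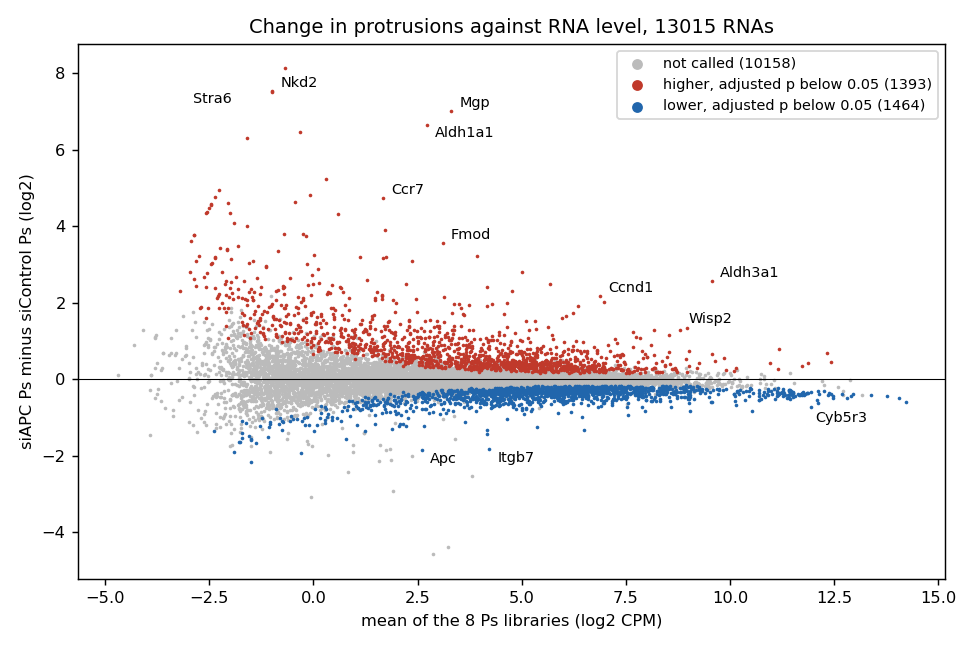
Log2 fold change (siAPC over siControl, vertical axis) against mean level in Ps (log2 CPM, horizontal axis) for 13015 RNAs, with RNAs that rose in red, those that fell in blue and the 10158 others in grey. At a mean of at least 1 log2 CPM rises reach 7.02 for Mgp and 6.64 for Aldh1a1, and 59 of the 1464 falls exceed 2-fold. Rarer RNAs such as Nkd2 and Stra6 are drawn above Mgp, but with 0 reads in siControl Ps their height rests on the 0.5 reads added.

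In CB, 979 RNAs (7.52%) were higher and 764 (5.87%) were lower with siAPC. Of the 1393 RNAs higher in Ps, 835 were among the 979 called higher in CB, and 97.4% had a positive log2 fold change there. Of the 1464 lower RNAs, 565 were among the 764 called lower in CB and 97.1% had a negative one. Ps and CB libraries do not share control samples, and by the study's methods the fractions were taken from different filters, 3 for Ps and 1 for CB. The test of the difference between the Ps change and the CB change called 0 RNAs as higher (0.0%) and 3 as lower (0.0231%). At an unadjusted p below 0.05, limma gave 269 higher and 223 lower in that test. Most RNAs called in Ps thus had the same direction in CB, while many of them were not called there.

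**Figure D2:**
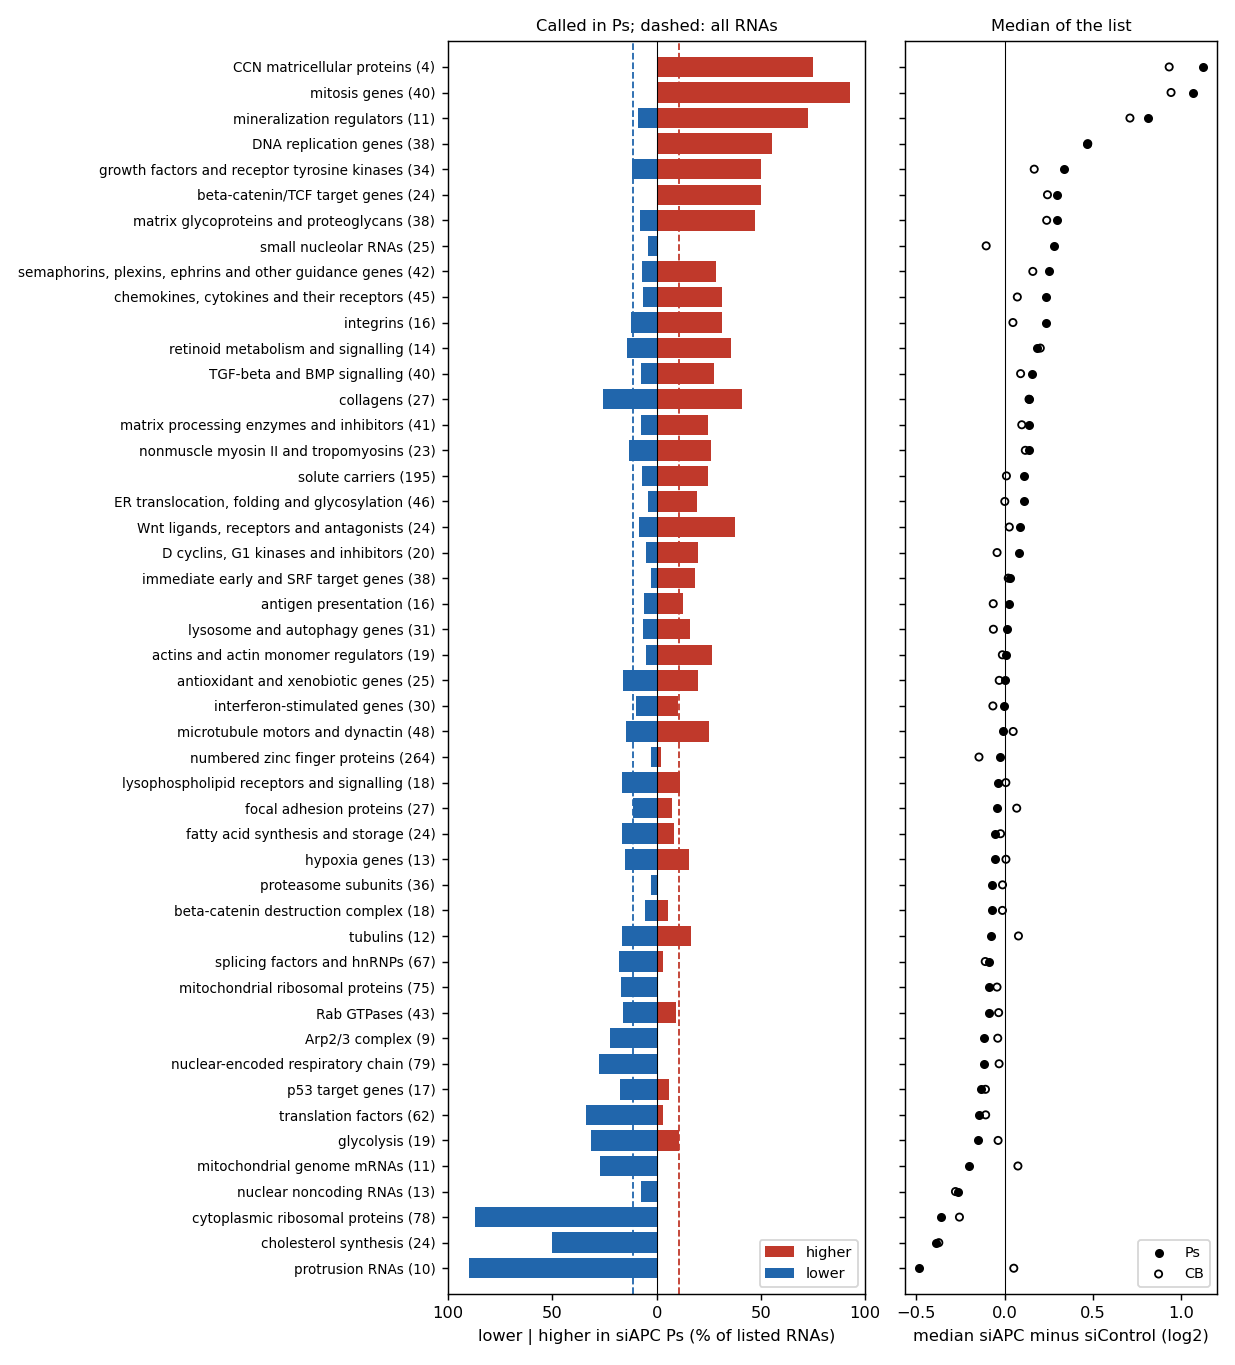
Gene lists by function, with the number of listed members in parentheses. The left panel gives the percentage of members that rose (red) or fell (blue) in siAPC Ps, with dashed lines at the percentages over all RNAs, and the right panel gives the median log2 fold change in Ps (filled) and CB (open). Mitosis genes had 37 of 40 members higher and cytoplasmic ribosomal proteins 68 of 78 lower.

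Many of the listed target genes of beta-catenin and TCF rose. This list, like all lists here, was written with earlier results of these data known. Of 24 listed members, 12 rose and 0 fell in Ps, with a median log2 fold change of 0.30 beside -0.02 over all RNAs, and 10 rose in CB. Ccnd1, which encodes cyclin D1, the partner of the G1 kinases, lies on chromosome 7 from 144929931 to 144939925 (GRCm38, minus strand). Its levels were 5.54, 5.74, 5.98 and 5.89 log2 CPM in siControl Ps and 7.59, 7.61, 8.21 and 8.46 in siAPC Ps, with a log2 fold change of 2.18 (SE 0.17, adjusted p = 3.54e-08). The groups did not overlap, and the CB value was 2.30. Apcdd1, an inhibitor of Wnt signalling at the cell membrane, stood at 5.15 to 5.50 in siControl Ps and 6.68 to 7.42 in siAPC Ps (log2 fold change 1.73, SE 0.12). Wisp2 rose by 1.27 (SE 0.09) from 8.07 to 8.30 to a range of 9.36 to 9.52. Birc5, which encodes survivin and is also a mitosis gene, rose by 1.07 (SE 0.16, adjusted p = 9.25e-05), by 0.69 within replicates 1 and 2 and by 1.45 within replicates 3 and 4.

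The following target genes were in addition named outside the naming rule, after their values were seen. Nkd2, an inhibitor of Wnt signalling that binds Dishevelled, had 0 reads in all 4 siControl Ps libraries and 77, 73, 187 and 154 reads in siAPC Ps libraries 1 to 4, at least 26.5-fold higher than the floor of 3 reads per library. Rnf43, a ubiquitin ligase that removes Wnt receptors from the membrane, had 0 reads in siControl Ps and 11, 11, 34 and 28 in siAPC Ps, at least 4.44-fold higher. Both could only count as higher, and without them 10 members of the list rose with a median of 0.21. Not every classical target moved. Myc had a log2 fold change of -0.08 (SE 0.22, adjusted p = 0.854), with 4.38 to 5.46 log2 CPM in siControl Ps and 4.59 to 4.94 in siAPC Ps. Lef1 stayed near the floor in both groups, with a value of 0.23 (adjusted p = 0.808). Axin2 is not reported here. In the promoters described below, CTTTGA, the core bound by TCF factors, was found on either strand in 2 of 13 matched genes of this list (15.4%) and in 11.6% of all.

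Of the 24 listed Wnt ligands, receptors and antagonists, 9 rose and 2 fell, with a median of 0.09 that was 0.15 within replicates 1 and 2 and 0.13 within replicates 3 and 4. Wnt9a stood at 2.50, 2.55, 3.16 and 2.87 log2 CPM in siControl Ps and at 4.51, 4.42, 4.90 and 4.99 in siAPC Ps (log2 fold change 1.94, SE 0.16, adjusted p = 5.14e-08). Wnt5a, a ligand known for signalling without beta-catenin, rose by 1.10 (SE 0.14). Among the Frizzled receptors, Fzd1 rose by 0.99 (SE 0.13) and Fzd2 by 0.73 (SE 0.08). Dkk3, outside the naming rule, went from -0.71 to 0.41 log2 CPM in siControl Ps to 1.33 to 1.76 in siAPC Ps. It was above 0.5 log2 CPM in siAPC libraries alone, and without the 1 such member 8 of the list rose, with a median of 0.08. Of 18 listed members of the destruction complex and its regulators, Csnk1e rose (0.29, SE 0.09, adjusted p = 0.0314) and Apc fell, and the median was -0.07, or 0.09 with total listed reads. After correction for GC content and length 8 of the 18 fell. The call for Csnk1e was lost in 7 of 18 alternatives.

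**Figure D3:**
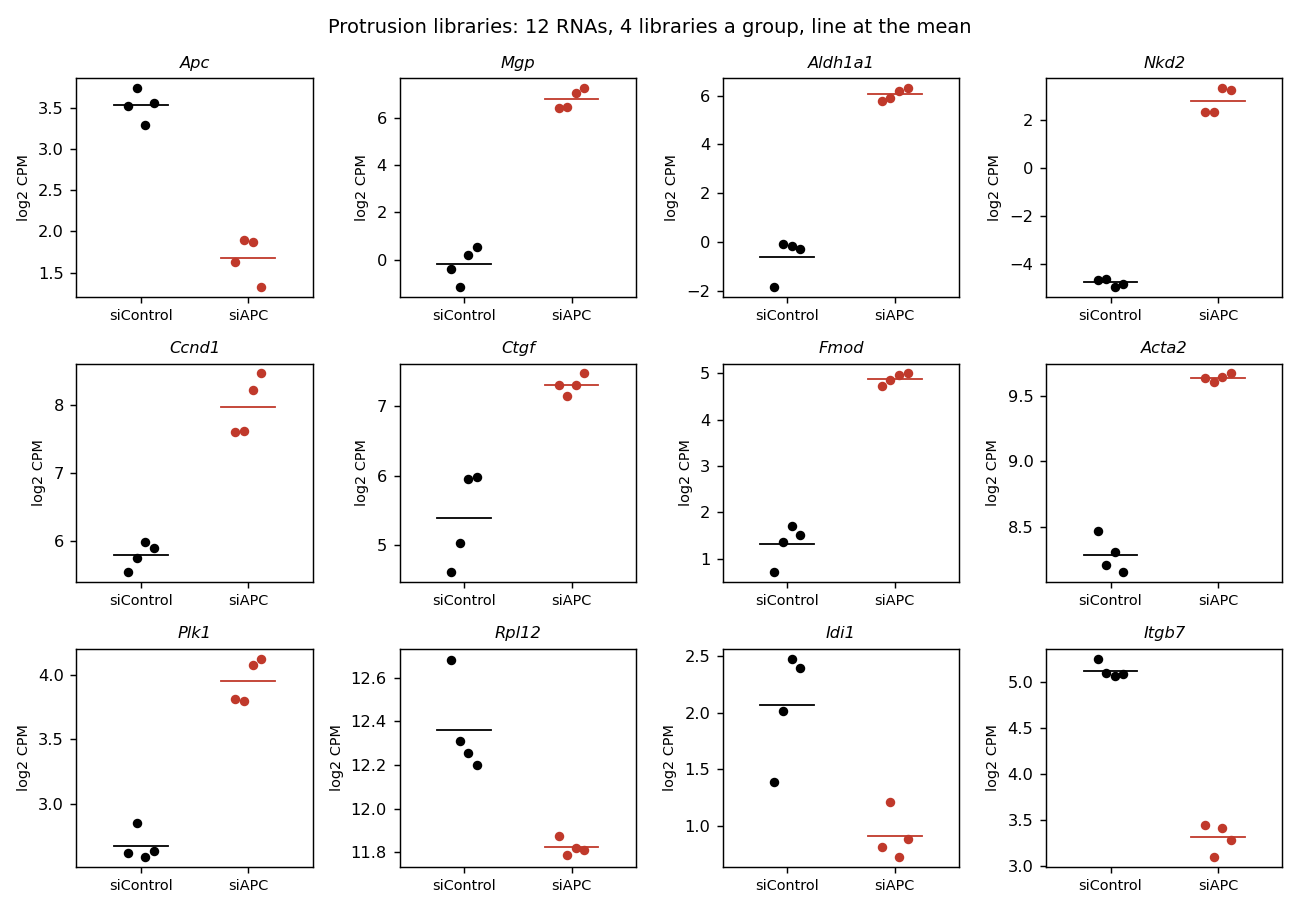
Levels (log2 CPM, vertical axes that do not start at 0) of 12 RNAs in the 4 siControl Ps and 4 siAPC Ps libraries, with a point for each library and a line at the group mean. In none of the 12 panels do the groups overlap; Apc, Rpl12, Idi1 and Itgb7 were lower with siAPC and the others higher.

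Among RNAs with a mean of at least 1 log2 CPM, the largest rise was that of Mgp, on chromosome 6 from 136872435 to 136875823 (minus strand). It encodes matrix Gla protein, a secreted inhibitor of calcification. Its reads were 9, 5, 17 and 20 in siControl Ps and 1358, 1311, 2605 and 2553 in siAPC Ps. The levels rose from between -1.15 and 0.53 to between 6.44 and 7.28 log2 CPM, a log2 fold change of 7.02 (SE 0.32, adjusted p = 2.1e-11), or 130-fold. In CB the log2 fold change was 6.97. Of 11 listed regulators of mineralization, Mgp included, 8 rose and 1 fell, with a median of 0.81. Without the 2 members above 0.5 log2 CPM in siAPC libraries alone, 6 rose with a median of 0.61. Ogn, the small proteoglycan osteoglycin, rose by 1.96 (SE 0.34), Spp1, which encodes the phosphorylated matrix protein osteopontin, by 1.15 (SE 0.22), and the phosphate importer Slc20a1 by 0.81 (SE 0.09). Alpl, the phosphatase that makes free phosphate for mineral, had 0 reads in siControl Ps and 16, 10, 17 and 24 in siAPC Ps, at least 3.86-fold higher, and could only count as higher.

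CCN proteins are small secreted regulators that bind matrix and integrins. Of 4 listed members 3 rose, with a median of 1.13, and 3 rose in CB. Ctgf stood at 4.61, 5.03, 5.94 and 5.97 log2 CPM in siControl Ps and at 7.30, 7.15, 7.31 and 7.48 in siAPC Ps, a log2 fold change of 1.92 (SE 0.26, adjusted p = 2.09e-05). The siControl libraries of replicates 1 and 2 were lower than those of 3 and 4, so that the difference was 2.41 within the former and 1.44 within the latter. Wisp1 rose by 0.98 (SE 0.13), in addition to Wisp2 above.

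In the lists of the extracellular matrix more members rose than fell, though not for collagens within replicates 3 and 4. Over all RNAs 10.7% were higher and 11.2% were lower. Of 38 listed matrix glycoproteins and proteoglycans 18 rose and 3 fell, with a median of 0.30 that was 0.38 within replicates 1 and 2 and 0.17 within replicates 3 and 4, and in CB 16 rose and 4 fell. Without the 1 member above 0.5 log2 CPM in siAPC libraries alone, 17 rose in Ps with a median of 0.26. Fmod, which encodes fibromodulin, a proteoglycan on collagen fibrils, went from 0.72, 1.36, 1.71 and 1.51 log2 CPM in siControl Ps to 4.71, 4.86, 4.95 and 4.99 in siAPC Ps (log2 fold change 3.55, SE 0.18, adjusted p = 4.19e-11). Dcn, the related proteoglycan decorin, rose by 3.10 (SE 0.20), from 0.49 to 0.96 in siControl Ps to 3.63 to 4.33 in siAPC Ps. Thbs1, which encodes thrombospondin and can release TGF-beta from its latent form, stood at 5.55, 5.92, 6.19 and 6.24 in siControl Ps and 8.20, 7.87, 7.97 and 7.93 in siAPC Ps, a log2 fold change of 2.02 (SE 0.12). Fn1, the gene of fibronectin, also outside the naming rule, rose by 0.68 (SE 0.10, adjusted p = 5.47e-05), from 11.86 to 12.07 in siControl Ps to 12.57 to 12.78 in siAPC Ps.

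Collagens were split. Of 27 listed members 11 rose and 7 fell, with a median of 0.14 that was 0.23 within replicates 1 and 2 and 0.01 within replicates 3 and 4. Within replicates 3 and 4, 6 rose and 7 fell. Col8a1, a short-chain collagen of vessel walls and basement membranes, rose by 1.68 (SE 0.17). The fibril-forming genes Col1a1 and Col1a2, named after their values were seen, rose by 0.45 (SE 0.11) and 0.43 (SE 0.09). Col5a3, a chain of the fibril-regulating collagen V, fell from 4.71, 4.75, 4.97 and 4.86 log2 CPM to 3.77, 3.60, 3.49 and 3.11 (log2 fold change -1.33, SE 0.12, adjusted p = 2.48e-07). Matrix enzymes and their inhibitors had 10 of 41 members higher and 3 lower, with Mmp28 higher by 1.36 (SE 0.15) and Adamts14, which trims procollagen, at a log2 fold change of -1.19 (SE 0.25). Without the 2 members above 0.5 log2 CPM in siAPC libraries alone, 8 of this list rose. Plau, the urokinase-type plasminogen activator, rose by 0.80 (SE 0.20). Its log2 fold change was 1.31 within replicates 1 and 2 and 0.29, without a call, within replicates 3 and 4.

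Of 16 listed integrins 5 rose and 2 fell, with a median of 0.23 that was -0.08 within replicates 3 and 4. Without the 1 member above 0.5 log2 CPM in siAPC libraries alone, 4 rose with a median of 0.21. Itgb7, a beta subunit best known from lymphocytes, fell the most after Apc among the RNAs named by the rule. It went from 5.26, 5.10, 5.07 and 5.09 log2 CPM in siControl Ps to 3.45, 3.10, 3.42 and 3.28 in siAPC Ps (log2 fold change -1.82, SE 0.10, adjusted p = 1.18e-10). Itgb5, which pairs with the alpha v subunit and binds vitronectin, rose by 0.67 (SE 0.07) and Itga10, a collagen receptor, by 1.04 (SE 0.14). Focal adhesion proteins had 2 of 27 members higher and 3 lower, with a median of -0.04 that was above 0 after quantile normalization and with total listed reads, and 11 fell after correction for GC content and length. Kank2 and Zyx were among the 3, and the former is described with the protrusion RNAs below. Zyx, the gene of zyxin, fell by 0.27 (SE 0.08, adjusted p = 0.0163) with overlapping groups and lost its call in 4 of 18 alternatives.

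Genes of retinoid metabolism and signalling had 5 of 14 listed members higher and 2 lower, with a median of 0.19, and 4 higher and 0 lower in CB. Retinoic acid is made from retinol by a retinol dehydrogenase and then a retinaldehyde dehydrogenase, and acts through nuclear receptors. Aldh1a1, a retinaldehyde dehydrogenase on chromosome 19 from 20492715 to 20643465 (plus strand), gave -1.83, -0.09, -0.17 and -0.30 log2 CPM in siControl Ps and 5.80, 5.89, 6.20 and 6.30 in siAPC Ps. Its log2 fold change of 6.64 (SE 0.32, adjusted p = 3.24e-11) was the highest after Mgp among RNAs of that level, and the CB value was 6.50. Rdh10, which carries out the first step, rose from between 4.84 and 5.39 to between 6.56 and 6.96 (log2 fold change 1.59, SE 0.13). Stra6, the membrane receptor that takes up retinol from its binding protein, had 0 reads in every siControl Ps library and 65, 71, 183 and 184 in siAPC Ps, at least 26.2-fold higher than the floor. Aldh1a7, a close relative of Aldh1a1 that may share reads with it, had at most 4 reads in siControl Ps and 81 to 164 in siAPC Ps. These last genes were named after their values were seen. Aldh1a1, Stra6 and Aldh1a7 were above 0.5 log2 CPM in siAPC libraries alone, and without these 3 the list had 2 higher members and a median of 0.12. The enzyme that clears retinoic acid, Cyp26b1, fell by 0.48 (SE 0.11, adjusted p = 0.00317), and the receptor Rarg had a log2 fold change of -0.30 with a call that was lost in 6 of 18 alternatives.

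Aldh3a1, another aldehyde dehydrogenase, was among the most abundant RNAs with a large rise. It stood at 8.57, 8.59, 8.04 and 7.90 log2 CPM in siControl Ps and at 10.99, 10.88, 10.63 and 10.88 in siAPC Ps (log2 fold change 2.57, SE 0.20, adjusted p = 3.24e-08). The antioxidant and xenobiotic list to which it belongs had 5 of 25 members higher and 4 lower and a median of 0.00. Sod3, the extracellular superoxide dismutase, rose by 0.64 (SE 0.13).

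Other RNAs among the 12 highest were of varied function. Ccr7, a chemokine receptor of leukocytes, went from -0.24, -0.71, -1.46 and -0.44 log2 CPM to 3.86, 3.72, 4.12 and 4.42 (log2 fold change 4.74, SE 0.30). Cd74, the invariant chain of MHC class II, rose by 3.17 (SE 0.17). The summed macrophage markers given above were higher in siAPC Ps too, and their part was not tested. Tmem100 rose by 3.91 (SE 0.17), Selenbp1 by 3.23 (SE 0.15), the netrin gene Ntn5 by 3.20 (SE 0.22), Pmepa1, which restrains TGF-beta signalling, by 2.82 (SE 0.12), and the troponin gene Tnnc1 by 2.60 (SE 0.20). Ntn5 and Tnnc1 were above 0.5 log2 CPM in siAPC libraries alone. All of them were higher in CB too, by 2.82 to 4.34. The lowest 12 were Apc, Itgb7 and Col5a3 with Pqlc3 (-1.44), Vill (-1.36), the protease inhibitor gene Slpi (-1.33), Pxmp2 (-1.29), Gng2 (-1.23), Agt (-1.23), Gpr149 (-1.21), Adamts14 and the ETS factor gene Etv4 (-1.18). In each of the 12 highest and 12 lowest RNAs the 4 siAPC and 4 siControl libraries did not overlap, as the rule required.

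Genes of actin and myosin filaments gave individual rises but small list medians. Acta2, which encodes smooth muscle actin, stood at 8.47, 8.21, 8.31 and 8.16 log2 CPM in siControl Ps and at 9.63, 9.61, 9.64 and 9.67 in siAPC Ps (log2 fold change 1.35, SE 0.08, adjusted p = 3.36e-10). Actg2, the enteric smooth muscle actin, rose by 1.22 (SE 0.17), and reads shared between near-identical actin genes may add to its uncertainty. Myl9, the regulatory light chain of myosin II, went from 4.93, 4.56, 4.66 and 4.67 to between 5.93 and 6.05 (log2 fold change 1.30, SE 0.08). The calponin gene Cnn2 rose by 0.42 (SE 0.07). Tagln rose by 0.78 (SE 0.26, adjusted p = 0.0379), a call lost in 9 of 17 alternatives, including the fit with replicate number as a block. In the lists as a whole, 5 of 19 actin and monomer regulator genes rose and 1 fell, with a median of 0.01 that was -0.05 after correction for GC content and length and -0.09 within replicates 3 and 4, and 6 of 23 genes of the nonmuscle myosin and tropomyosin list rose and 3 fell, with a median of 0.14. Muscle markers, which included Acta1, were higher in siAPC Ps as given above, and their part was not tested.

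Of 9 listed subunits of the Arp2/3 complex, which nucleates branched filaments, Arpc1a fell by 0.34 (SE 0.07) and Arpc1b by 0.27 (SE 0.07), and the list median of -0.12 was 0.05 with total listed reads. Diap1, a formin that elongates straight filaments, fell by 0.45 (SE 0.08) in Ps and had a CB log2 fold change of -0.07. Tubulins had 2 of 12 members higher and 2 lower, or 6 lower after correction for GC content and length. Microtubule motors had 12 of 48 higher and 7 lower, or 17 lower after that correction, with a median of -0.01 (0.16 with total listed reads). Without the 2 members above 0.5 log2 CPM in siAPC libraries alone, 10 rose with a median of -0.04. The 4 highest called members with a mean of at least 1 log2 CPM, Kif2c (1.33), Kif11 (1.16), Kif18b (1.11) and Kif20a (1.06), are motors of the mitotic spindle or midbody.

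Genes of mitosis formed the list with the largest share of rises. Of 40 listed members 37 rose and 0 fell in Ps, with a median log2 fold change of 1.07, beside 10.7% of all RNAs that rose. Of the 37, 1 was above 0.5 log2 CPM in siAPC libraries alone. In CB 31 rose and 0 fell, with a median of 0.94. The median was 0.69 within replicates 1 and 2, where 13 members rose, and 1.42 within replicates 3 and 4, where 38 rose. Plk1, a kinase that drives entry into and passage through mitosis, stood at 2.62, 2.86, 2.59 and 2.64 log2 CPM in siControl Ps and at 3.81, 3.80, 4.08 and 4.13 in siAPC Ps (log2 fold change 1.28, SE 0.14, adjusted p = 3.22e-06). Nusap1, a spindle microtubule-binding protein, had 1.47, 2.07, 0.80 and 1.10 in siControl Ps and 2.85, 2.92, 2.63 and 2.78 in siAPC Ps (log2 fold change 1.43, SE 0.30). Its siControl libraries of replicates 3 and 4 were the lowest, and the difference was 1.11 within replicates 1 and 2 and 1.75 within replicates 3 and 4. Nuf2, a kinetochore subunit, rose by 1.32 (SE 0.26) and Kif2c, which depolymerizes microtubules at centromeres, by 1.33 (SE 0.19), by 0.92 and 1.73 within the respective replicate pairs.

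DNA replication genes had a smaller median rise. Of 38 listed members 21 rose and 0 fell, with a median of 0.47, and 23 rose in CB with a median of 0.47. Within replicates 1 and 2 the median was 0.22 and 2 members rose, and within replicates 3 and 4 it was 0.73 and 29 rose. Gins1, a subunit of the replicative helicase, went from between 0.79 and 1.2 log2 CPM to 2.15, 2.09, 2.20 and 2.57 (log2 fold change 1.26, SE 0.19). Cdc45, of the same helicase, rose by 1.10 (SE 0.16), 0.75 within replicates 1 and 2 and 1.45 within replicates 3 and 4. Tk1, the thymidine kinase of S phase, rose by 0.87 (SE 0.19), and its log2 fold change was 0.42, without a call, and 1.31 within the same pairs. Of 20 D cyclin, G1 kinase and inhibitor genes 4 rose and 1 fell. Ccnd2, the second D cyclin, went the other way from Ccnd1. It fell from between 7.04 and 7.46 to between 6.40 and 6.87 (log2 fold change -0.62, SE 0.11, adjusted p = 0.000356), with a CB value of -0.07. The factor gene E2f1 rose by 0.49 (SE 0.10) and Rbl1, a pocket protein that binds E2F factors, by 0.74 (SE 0.15).

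Promoter sequences show what mitosis genes share apart from their change. The cell cycle homology region, TTTGAA on either strand, is known for repression of such genes in resting cells, often beside CCAAT boxes bound by NF-Y. RefSeq promoters (GRCm38.p6, 250 bases before to 50 after the gene start) were matched by symbol for 9170 RNAs of the table. The letters TTTGAA were found on either strand in 24 of 32 matched mitosis genes (75.0%) and in 11.6% of all matched promoters. CCAAT, on either strand, was found in 23 of 32 (71.9%), in 19 of 30 matched DNA replication genes (63.3%) and in 39.5% of all. In the replication genes TTTGAA was found in 4 (13.3%), while TTTCGCGC or TTTGGCGC, letters bound by E2F factors, were found in 8 (26.7%) against 1.62% of all. None of these motifs contains another, and a match describes the window only. The 80 bases before the start are shown for the 4 called mitosis genes with the largest log2 fold changes among those with the motif wholly in that window, with TTTGAA or its reverse complement TTCAAA in capitals.
Top2a (chr11:99024190-99024269, minus strand): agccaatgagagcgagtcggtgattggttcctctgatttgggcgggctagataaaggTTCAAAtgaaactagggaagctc
Kif11 (chr19:37376302-37376381, plus strand): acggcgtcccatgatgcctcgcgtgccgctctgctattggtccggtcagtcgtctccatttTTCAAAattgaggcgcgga
Cdc20 (chr4:118437344-118437423, minus strand): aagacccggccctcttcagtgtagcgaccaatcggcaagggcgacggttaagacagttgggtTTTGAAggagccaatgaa
Ube2c (chr2:164769849-164769928, plus strand): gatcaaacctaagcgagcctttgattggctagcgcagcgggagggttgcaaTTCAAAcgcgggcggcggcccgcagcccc

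The genes of these promoters rose in both fractions. Top2a, the topoisomerase that untangles sister chromatids, rose by 1.22 in Ps and 1.12 in CB, and Kif11, the motor that separates spindle poles, by 1.16 and 0.99. Cdc20, an activator of the anaphase-promoting complex, rose by 1.02 in Ps and 1.02 in CB, and Ube2c, the ubiquitin-conjugating enzyme of that complex, by 0.88 and 1.07.

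Cytoplasmic ribosomal protein (r-protein) mRNAs formed the list with the most falls. These mRNAs are among the most abundant of the cell, and their translation is controlled together through a run of pyrimidines at the very start of the transcript. Of 78 listed members 68 fell and 0 rose in Ps, with a median of -0.36, beside 11.2% of all RNAs that fell. In CB 22 fell with a median of -0.26. The size was small and rested on the scaling: 43 members fell with a median of -0.20 with total listed reads, and 12 with a median of -0.06 after quantile normalization. Relative to the median of all RNAs it was -0.33 under the deposited scaling and under total listed reads alike, and -0.03 after quantile normalization. Within replicates 1 and 2 the median was -0.46 with 59 members lower, and within replicates 3 and 4 it was -0.26 with 20 lower.

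Rpl12, a protein of the large subunit on chromosome 2 from 32961559 to 32965345 (plus strand), showed the largest fall of an r-protein mRNA. It stood at 12.68, 12.31, 12.25 and 12.20 log2 CPM in siControl Ps and at 11.88, 11.79, 11.82 and 11.81 in siAPC Ps (log2 fold change -0.54, SE 0.10, adjusted p = 0.000559). The first siControl library was highest, the groups did not overlap, and the CB value was -0.42. Rpl4 fell by 0.52 (SE 0.09), Rpl5 by 0.52 (SE 0.11) and Rpl8 by 0.50 (SE 0.09). R-protein genes have many processed pseudogenes, among them Rpl31-ps9 and Rpl30-ps10 that set replicates of siAPC apart, so reads could have been split between copies in the counting. Gas5, a noncoding RNA whose transcript also starts with such a run, fell by 0.83 (SE 0.14), from 9.89, 9.68, 9.09 and 9.18 to 8.72, 8.86, 8.54 and 8.40.

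Translation factors followed in part. Of 62 listed members 21 fell and 2 rose, beside 11.2% of all RNAs that fell. Of the 2, 1 was above 0.5 log2 CPM in siAPC libraries alone. The list median was -0.15, or 0.02 with total listed reads. After quantile normalization 12 fell and 6 rose, with a median of -0.09. Eef1g, a subunit of the elongation factor that recharges eEF1A, went from 12.58, 12.35, 12.42 and 12.35 log2 CPM to 11.77, 11.70, 11.87 and 11.90 (log2 fold change -0.61, SE 0.08, adjusted p = 2.57e-05). The poly(A)-binding proteins Pabpc4 and Pabpc1 fell by 0.62 (SE 0.07) and 0.54 (SE 0.07). Eif2s3x, a subunit of the factor that brings the initiator tRNA, fell by 0.61 (SE 0.09). A C followed by 4 pyrimidines at the annotated start was found in 13 of 57 matched r-protein genes (22.8%) and in 2 of 48 matched translation factor genes (4.17%), against 2.32% of all matched promoters. A start annotated a few bases off would hide such a run. The bases from 10 before to 20 after the start are shown for 4 of the members that have it, with the pyrimidine run in capitals. They were picked among members called lower in Ps for large falls, so their direction follows from that choice.
Eif2s3x (chrX:94212632-94212661, minus strand): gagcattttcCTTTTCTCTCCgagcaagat
Rps6 (chr4:86857348-86857377, minus strand): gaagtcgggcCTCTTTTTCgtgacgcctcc
Rpl14 (chr9:120571507-120571536, plus strand): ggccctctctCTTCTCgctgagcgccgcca
Rpl15 (chr14:18270967-18270996, minus strand): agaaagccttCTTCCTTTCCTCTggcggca

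Rps6, a small subunit protein phosphorylated on growth signals, had a log2 fold change of -0.48 in Ps and -0.35 in CB. Rpl14 gave -0.42 and -0.31, and Rpl15 gave -0.42 in Ps and -0.18 in CB, the last without a call.

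Among genes of mitochondria and glycolysis some fell by small amounts. Their list medians lay close to that of all RNAs, at -0.09 relative to it for the respiratory chain, -0.06 for mitochondrial ribosomal proteins and -0.13 for glycolysis. Within replicates 1 and 2 these relative medians were -0.18, -0.15 and -0.22, within replicates 3 and 4 they were 0.0057, 0.0043 and -0.04, and after quantile normalization -0.01, -0.03 and -0.05. Of 79 nuclear-encoded respiratory chain genes 22 fell and 0 rose, with a median of -0.12 that was 0.04 with total listed reads, and 5 fell in CB. Atp5g2, a ring subunit of ATP synthase, fell by 0.47 (SE 0.08), and Ndufa6, of complex I, by 0.47 (SE 0.08). Mitochondrial ribosomal proteins had 13 of 75 members lower (17.3%, beside 11.2% of all RNAs) and 0 higher, with a median of -0.09 that was 0.08 with total listed reads. Of 11 mRNAs of the mitochondrial genome 3 fell, with a median of -0.20 that was 0.05 without siControl Ps replicate 1 and -0.46 without both replicate 2 libraries. The RNA with the most reads in 6 of the 8 Ps libraries, mt-Co1, a subunit of cytochrome c oxidase, gave 15.05, 14.34, 14.47 and 14.20 log2 CPM in siControl Ps and 14.08, 13.98, 13.90 and 13.69 in siAPC Ps (log2 fold change -0.60, SE 0.14), with a CB value of -0.10. Quantile normalization, which sets the top ranks of all libraries equal, left a difference of 0.0 and no call. The share of mitochondrial reads moved the same way, as given above. Of 19 glycolysis genes 6 fell and 2 rose, with a median of -0.15 that was 0.01 with total listed reads. Pgk1 fell by 0.44 (SE 0.07), Pkm, the last kinase of the pathway, by 0.43 (SE 0.09; -0.11 without a call after quantile normalization), and the first kinase, Hk2, rose by 0.64 (SE 0.21, adjusted p = 0.0361), a call lost in 7 of 18 alternatives.

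Cholesterol synthesis genes, which are turned on by SREBP factors when sterols are scarce, fell in part. Of 24 listed members 12 fell and 0 rose in Ps, with a median of -0.39, beside 11.2% of all RNAs that fell. In CB 16 fell, with a median of -0.37. The median was -0.29 within replicates 1 and 2 and -0.44 within replicates 3 and 4. Idi1, the isomerase that makes dimethylallyl diphosphate, gave 1.39, 2.02, 2.48 and 2.39 log2 CPM in siControl Ps and 0.81, 1.21, 0.73 and 0.89 in siAPC Ps (log2 fold change -1.16, SE 0.32, adjusted p = 0.0124), with -0.69 within replicates 1 and 2 and -1.63 within replicates 3 and 4. Hmgcs1 fell by 0.72 (SE 0.24, adjusted p = 0.0365), a call lost in 8 of 18 alternatives, and Mvd by 0.58 (SE 0.08). CCAAT was found in 15 of 17 matched promoters of this list (88.2%) against 39.5% of all. Among genes of fatty acid synthesis and storage 2 of 24 rose and 4 fell. Acly, which makes cytosolic acetyl-CoA, fell by 0.58 (SE 0.07) and the carboxylase Acaca by 0.49 (SE 0.08), while the lipid droplet coat gene Plin2 rose by 0.72 (SE 0.08).

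Growth factors and receptor tyrosine kinases had 17 of 34 listed members higher and 4 lower, with a median of 0.34, and 15 higher and 5 lower in CB. Pdgfrb, a receptor for platelet-derived growth factor, rose from 6.80, 6.91, 7.26 and 7.20 log2 CPM to 8.14, 8.10, 8.42 and 8.48 (log2 fold change 1.24, SE 0.10, adjusted p = 3.81e-08). Fgfr2 rose by 1.25 (SE 0.17). Hbegf, a ligand of the EGF receptor, gave -0.11, 1.27, 2.17 and 2.18 in siControl Ps against 2.36 to 2.72 in siAPC Ps (log2 fold change 1.09, SE 0.37, adjusted p = 0.0407). Its difference was 1.82 within replicates 1 and 2 and 0.36 within replicates 3 and 4, and the call was lost in 10 of 18 alternatives. In the TGF-beta and BMP list 11 of 40 rose and 3 fell. Of the 11, 4 were above 0.5 log2 CPM in siAPC libraries alone and could only count as higher. Without them 7 rose, with a list median of 0.13. The receptor gene Tgfbr2 rose by 0.84 (SE 0.08) and Smad6, which restrains BMP signals, by 1.31 (SE 0.23), while Tgfbi, a matrix protein induced by TGF-beta, fell by 0.65 (SE 0.13).

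The attractant in these cultures was LPA, and its receptor changed. Lpar1, the main LPA receptor of fibroblasts, stood at 5.54, 5.54, 5.79 and 5.69 log2 CPM in siControl Ps and at 5.06, 5.05, 4.88 and 4.48 in siAPC Ps (log2 fold change -0.77, SE 0.12, adjusted p = 0.000103). Groups did not overlap, the CB value was -0.58, and the difference was -0.49 within replicates 1 and 2 and -1.06 within replicates 3 and 4. S1pr3, a receptor for sphingosine 1-phosphate, rose by 0.80 (SE 0.09), and Ppap2a, a membrane phosphatase that degrades LPA, by 0.58 (SE 0.05). The list of lysophospholipid genes as a whole had 2 of 18 higher (11.1%) and 3 lower (16.7%), beside 10.7% and 11.2% over all RNAs. Of the 3 lower, 1 was above 0.5 log2 CPM in siControl libraries alone and had little room to be called higher. Among immediate early and SRF target genes 7 of 38 rose (18.4%) and 1 fell (2.63%), beside the same shares over all RNAs. Egr1, which separated the siControl replicates, had a log2 fold change of -0.28 (SE 0.92, adjusted p = 0.878).

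Chemokines, cytokines and their receptors had 14 of 45 members higher and 3 lower. The counts in this paragraph stand beside 10.7% higher and 11.2% lower over all RNAs. Lif, a cytokine that signals through STAT3, rose by 1.56 (SE 0.17) and the chemokine Ccl8 by 1.24 (SE 0.23). Interferon-stimulated genes showed 3 of 30 higher (10%) and 3 lower (10%), near the shares of all RNAs, with a median of 0.00. Of the 3 higher, 1 was above 0.5 log2 CPM in siAPC libraries alone. Ifi27l2a was higher by 0.93 (SE 0.10), and Stat2 stood at -0.34, a call lost in 5 of 18 alternatives. Antigen presentation had 2 of 16 higher (12.5%), including Cd74, and 1 lower (6.25%), H2-T22 (-0.87, SE 0.15). Semaphorins, plexins, ephrins and other guidance genes had 12 of 42 higher and 3 lower, with Slit2, a secreted repellent, higher by 1.11 (SE 0.15) and Nrp1, a co-receptor for semaphorins, by 0.79 (SE 0.16). Of the 12, 1 was above 0.5 log2 CPM in siAPC libraries alone. Of 195 solute carriers 48 rose and 14 fell. Of the 48, 4 were above 0.5 log2 CPM in siAPC libraries alone, and of the 14, 1 was so in siControl libraries alone. Those with the highest values at a mean of at least 1 log2 CPM were the aromatic amino acid transporter Slc16a10 (1.86, SE 0.14) and the noradrenaline transporter Slc6a2 (1.67, SE 0.19).

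Secretory pathway genes had 9 of 46 higher and 2 lower, with P4hb, the disulfide isomerase that is also part of collagen prolyl hydroxylase, higher by 0.44 (SE 0.06). The remaining lists are given as counts, to be read beside 10.7% higher and 11.2% lower over all RNAs. Hypoxia genes had 2 of 13 higher and 2 lower, p53 targets 1 of 17 higher and 3 lower, and lysosome and autophagy genes 5 of 31 higher and 2 lower. The 1 higher p53 target was above 0.5 log2 CPM in siAPC libraries alone and could only count as higher. Rab GTPases had 4 of 43 higher and 7 lower, among them Rab3d, which fell by 1.05 (SE 0.10). Of the 4 higher Rab genes, 2 were above 0.5 log2 CPM in siAPC libraries alone and could only count as higher. Proteasome subunits had 1 of 36 lower, splicing factors and hnRNPs 2 of 67 higher and 12 lower, numbered zinc finger proteins 5 of 264 higher and 7 lower, nuclear noncoding RNAs 1 of 13 lower (Gas5) and small nucleolar RNAs 1 of 25 lower. By the common shift of total listed reads, the medians of the hypoxia, p53, Rab, proteasome, splicing factor, zinc finger, tubulin, fatty acid, interferon-stimulated and lysophospholipid lists went from 0 or below to above 0, with no change relative to all RNAs. Correction for GC content and length, under which the count of all lower RNAs rose to 2856, gave 13 lower members in glycolysis, 14 in Rab GTPases, 10 in proteasome subunits, 32 in zinc finger proteins and 30 in solute carriers. After this correction the median of all RNAs was -0.08 and those of the G1, antigen presentation, immediate early, antioxidant and lysosome lists went below 0, but relative to all RNAs the lysosome list alone did so (-0.01), and the small nucleolar RNA median of 0.28 was -0.06 after quantile normalization.

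The last group is RNAs known for their place in protrusions. Such RNAs are carried along microtubules to protrusion tips, and some associate there with Apc. Rab13, Pkp4, Ddr2 and Kank2 had been tied to Apc in earlier work that the study cites. Cyb5r3, which the study also names, and Net1, Kif1c, Trak2, Palld and Scd1 were added here with results of these samples known, so that their direction is not independent evidence. Of 10 listed, 9 fell in Ps, with a median log2 fold change of -0.49, beside 11.2% of all RNAs that fell. In CB 0 fell and 1 rose, with a median of 0.05, beside 5.87% lower and 7.52% higher over all RNAs. Of those tied to Apc earlier, Rab13 fell in Ps by 0.35, Pkp4 by 0.46, Ddr2 by 0.51 and Kank2 by 0.42. The calls of Rab13 and Ddr2 were lost in some alternatives. In Ps 8 of the 10 listed fell after quantile normalization, and with total listed reads 6 fell and 1 rose. Relative to all RNAs the median was -0.46 under both the deposited scaling and total listed reads.

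Net1, an exchange factor that activates RhoA, gave 4.68, 4.50, 4.73 and 4.63 log2 CPM in siControl Ps and 3.56, 3.88, 4.23 and 3.87 in siAPC Ps (log2 fold change -0.75, SE 0.12, adjusted p = 0.000163), with a CB value of 0.02. Its groups did not overlap in Ps, and the Ps change minus the CB change was -0.77 (SE 0.17, adjusted p = 0.219). Cyb5r3, a cytochrome b5 reductase on chromosome 15 from 83153494 to 83172592 (minus strand), had 12.50, 12.14, 12.39 and 12.24 in siControl Ps and 11.58, 11.36, 11.75 and 11.66 in siAPC Ps. In CB its level was 8.81 ± 0.099 (SD, n = 4) with siControl and 8.86 ± 0.11 (SD, n = 4) with siAPC. The Ps log2 fold change of -0.73 (SE 0.09) and the CB value of 0.05 differed by -0.78 (SE 0.13, adjusted p = 0.0433). Scd1, the stearoyl-CoA desaturase, had 10.00, 9.96, 9.76 and 9.62 in siControl Ps and 9.16, 9.23, 9.31 and 9.31 in siAPC Ps, with a log2 fold change of -0.59 in Ps and 0.05 in CB, a difference of -0.64 (SE 0.10, adjusted p = 0.0433). Its fall was 0.79 within replicates 1 and 2 and 0.38 within replicates 3 and 4. The third RNA with a called difference, 5730409E04Rik, fell by 0.53 in Ps and had a CB value of 0.10 (difference -0.63, adjusted p = 0.0433). With replicate number as a block the count of such RNAs was 1 instead of 3, and it was 0 when siControl Ps replicate 1 or 3 or siAPC Ps replicate 1, 2 or 4 was left out, 1 without siControl Ps replicate 4, 6 without siControl Ps replicate 2 and 7 without siAPC Ps replicate 3.

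The kinesin gene Kif1c gave 10.51, 10.16, 10.56 and 10.38 log2 CPM in siControl Ps and 9.76, 9.51, 10.04 and 9.98 in siAPC Ps (log2 fold change -0.58, SE 0.10; CB 0.17). Kank2, an adaptor at focal adhesions, fell by 0.42 (SE 0.08) with a CB value of 0.22. Pkp4, a plakophilin, stood at 6.24, 6.11, 6.45 and 6.22 against 5.73, 5.72, 5.83 and 5.89 and fell by 0.46 (SE 0.07; CB -0.11). Ddr2, a collagen receptor kinase, fell by 0.51 (SE 0.14, adjusted p = 0.0163; CB -0.11), a call lost without siAPC Ps replicate 4 and under 2 other scalings. Rab13, a vesicle GTPase on chromosome 3 from 90213695 to 90226385 (plus strand), had 6.62, 6.41, 6.20 and 6.09 in siControl Ps and 5.95 to 6.01 in siAPC Ps (log2 fold change -0.35, SE 0.10, adjusted p = 0.018), a call lost in 4 of 18 alternatives, among them total listed reads and without siControl Ps replicate 1. The siControl libraries of replicates 1 and 2 were higher than those of 3 and 4, so that the difference was -0.55 within replicates 1 and 2 and -0.14 within replicates 3 and 4. Trak2, an adaptor for kinesin on mitochondria, fell by 0.31 (SE 0.10), a call lost in 8 of 18 alternatives. Palld, the gene of the actin-bundling protein palladin, had 0.42 (SE 0.16, adjusted p = 0.0782) in Ps and rose by 1.08 in CB. With replicate number as a block it was called higher in Ps (limma adjusted p = 0.00224). Of the RNAs the study names as diffuse, Arpc3 had -0.13 (SE 0.07, adjusted p = 0.172) and Rhoa 0.05 (SE 0.06, adjusted p = 0.624).

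**Figure D4:**
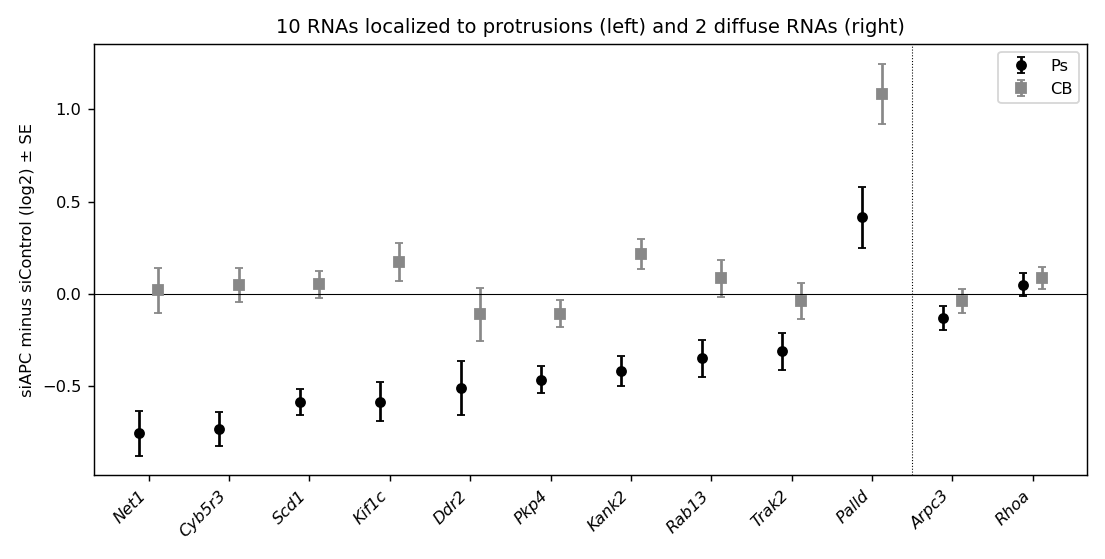
Log2 fold change (siAPC over siControl, vertical axis, ± SE of the limma contrast) in Ps (circles) and CB (squares) for 10 RNAs named for their place in protrusions and 2 named as diffuse (right of the dotted line). Of the 10 Ps values 9 are below 0, from -0.31 for Trak2 to -0.75 for Net1, and Palld is above 0 in both fractions.

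**Figure D5:**
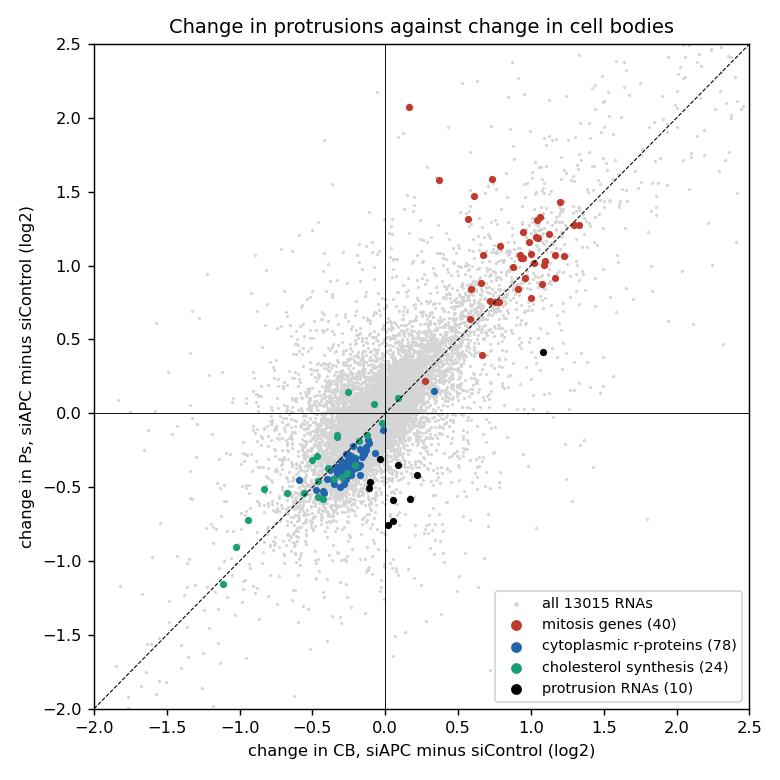
Log2 fold change in CB (horizontal axis) against that in Ps (vertical axis) for 13015 RNAs, with mitosis, r-protein, cholesterol synthesis and protrusion RNAs in colour and a dashed line of equality; 98 points lie outside the axes. Most coloured points of the first 3 lists follow the line, and 9 of the 10 protrusion RNAs lie below 0 in Ps within 0.22 of 0 in CB.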

How the data were processed

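The authors made libraries from total RNA with a stranded mRNA kit (TruSeq), although they call them total RNA libraries, and sequenced paired reads. They aligned the reads with STAR (2.4.2a) to mm10 with GENCODE mouse release 4, counted genes with Rsubread and normalized with limma-voom (limma 3.26.1). The deposited values are log2 CPM made by the authors with limma-voom, for 13015 RNAs in 16 libraries. Whole reads were recovered for 100% of the 208240 values (tolerance 0.01), which gave depths of 13466225 to 19524235 listed reads in Ps. Whether counting used strand is not given in the sources used here, so overlapping, antisense and near-identical genes are uncertain.

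Differences were tested with limma 3.58.1 in R 4.3.3 on the log2 CPM of all 16 libraries (variance trended with level in eBayes), 1 mean per group and no block. P-values were adjusted by Benjamini-Hochberg over all RNAs and called below 0.05. Single values were compared by exact two-sided permutation tests, which exchanged libraries freely and did not use the pairing by replicate number described below. The fit was tested on simulated data. Positions came from GENCODE M21 (GRCm38) for 12874 RNAs, 98.9%, matched by symbol, and promoters from RefSeq GRCm38.p6.

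Members and gene lists were chosen with earlier results of these data known. The rule for named genes took Apc, Ctnnb1, Mgp and RNAs the study names, the 12 highest and 12 lowest called RNAs with a mean of at least 1 log2 CPM and no overlap of groups, up to 4 called members of each of 48 lists with the largest change, and RNAs whose change differed between Ps and CB. Exceptions are marked as chosen after their values were seen. Some RNAs that the rule took are not reported here.

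Replicate numbers come from the labels. Deviations of same-numbered siAPC and siControl Ps libraries from their group means correlated at 0.162, 0.551, 0.440 and 0.227 over 10292 RNAs, against a mean of -0.112 for other pairs, so the numbers were taken as pairing the libraries and a fit with the replicate number as a block was an alternative. Deviations of replicate 2 from the group mean moved with GC content in both Ps groups (Spearman -0.646 in siAPC and -0.601 in siControl across 10237 genes, which are not independent replicates). Other alternatives were total listed reads, quantile normalization, loess on GC content and length, library weights, voom weights on the recovered reads, 2 reads added, a minimum mean, a fold minimum, the Ps libraries alone, leaving out libraries and the split of replicates.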

Additional observations from a re-analysis of the deposited data

Results flagged for a closer look

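Several libraries stood apart from the other 3 of their group in the level of a named RNA by Dixon's test, which by chance marks about 1 in 20 groups, and 11 of 306 such group tests did so. Aldh1a1, a retinal dehydrogenase, was at -1.83 log2 CPM in siControl Ps 1 and -0.30 to -0.09 in the other siControl Ps libraries. Dcn, which encodes decorin, was at 0.4922 in the same library and 0.90 to 0.96 in the others. In siAPC Ps 2, Tmem100 was at 3.903 (others 3.59 to 3.61), Agt, which encodes angiotensinogen, at 2.344 (others 1.91 to 1.97) and Rpl8, a ribosomal protein gene, at 12.08 (others 12.25 to 12.28). Fgfr2, a fibroblast growth factor receptor gene, was at 2.013 in siAPC Ps 4 and 1.82 to 1.85 in the others. Also in siAPC Ps 2, Myc was at 4.591 (others 4.90 to 4.94), Col1a1 at 12.46 (others 12.70 to 12.75) and Rpl15 at 10.38 (others 10.62 to 10.66). Acta1, the skeletal muscle actin gene, was at 4.373 in siAPC Ps 4 (others 4.12 to 4.15) and at 1.797 in siControl Ps 2 (others 2.64 to 2.74).

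The change in Ps differed from that in CB for Cyb5r3 (-0.7793), Scd1 (-0.6383) and 5730409E04Rik (-0.6316), each by the interaction term of limma with an adjusted p of 0.0433. These were tests of the difference itself.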

How the results depend on the processing

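The count of RNAs higher in siAPC Ps was 1393, and it was 788 within replicates 1 and 2, 2943 with total listed reads and 753 with a fold above 1.5 required. The count of lower RNAs was 1464, and it was 676 within replicates 1 and 2, 2209 with library weights, 2856 after loess on GC content and length, 550 with total listed reads and 234 with a fold above 1.5. A fit on the 8 Ps libraries alone gave 1141 higher and 1099 lower. Leaving out 1 Ps library gave 1186 to 1369 higher and 1182 to 1524 lower, and voom weights on the recovered reads gave 1321 and 1418. RNAs whose Ps change exceeded the CB change numbered 0, and 2 after quantile normalization or 0 to 1 with 1 library left out. RNAs whose Ps change was below the CB change numbered 3, and 10 with library weights, 10 after loess, 6 after quantile normalization, 1 with the replicate block, 0 with total listed reads, 0 within replicates 3 and 4, and 0 to 7 with 1 library left out. No such value could be had from the Ps libraries alone. The replicate block gave 1555 higher and 1758 lower RNAs. Among the RNAs named in the text it ended the call of Tagln, made Palld and Rpl30-ps10 pass, and changed no other call. The Apc log2 fold change stayed between -1.94 and -1.68. Of 139 RNAs named in the text and called, 120 kept the call in each alternative that could be computed for them (18 for 130 RNAs and 17 for 9, the split of replicates not counted) and 19 lost it in at least 1, with 9 lost with total listed reads and 8 after quantile normalization. None changed sign in these alternatives or within either pair of replicates, but 20 were not called within replicates 1 and 2 and 10 were not called within replicates 3 and 4. The causes were not tested. Depth limits RNAs near the floor, where 3 reads stand between -2.44 and -1.80 log2 CPM in Ps.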
